A study of Mus musculus with 2 samples.

Results

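The amino acid transporter genes of mouse dermal cells were taken as every gene whose symbol belongs to the solute carrier families Slc1, Slc3, Slc6, Slc7, Slc36, Slc38 or Slc43, which gave 52 genes of the 17431 with a read in either library. Poly(A) RNA had been sequenced from 1 library of cultured skin-derived precursors (SKPs) and 1 library of cultured dermal fibroblasts, both from the dermis of BALB/c mice. SKPs are multipotent dermal cells; here they came from mice at postnatal day 4 and were cultured in FGF2 (40 ng/ml) and EGF (20 ng/ml) with B27 at 2%. The fibroblasts came from mice at postnatal day 3 and were grown in DMEM with 10% fetal bovine serum. Cell type, medium, growth factors and age differed together, so their parts in any difference cannot be told apart. There was 1 library per cell type, so the differences below are between these 2 libraries, with no replicate check and no test of the cell types.

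Cells take up amino acids through families that differ in the ion that drives them and in the amino acids they carry. Sodium-coupled carriers of the SLC1, SLC6 and SLC38 families concentrate amino acids in the cell, while the SLC7 light chains, which work as heterodimers with an SLC3 heavy chain, mostly exchange one amino acid for another. Members of SLC36 and SLC38 also sit on lysosomes, where amino acids are released and sensed by the growth regulator mTORC1. Amino acid shortage acts through the kinase GCN2 and the transcription factor ATF4, which is known to raise transcription of several of these genes.

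The libraries held 22981183 reads for SKPs, of which 85.13% mapped, and 23374716 reads for fibroblasts, of which 81.65% mapped. Levels are given as RPKM, reads scaled by gene length and by the total assigned to genes, and 1 read in a gene of 1 kb was worth 0.0528 RPKM in the SKP library and 0.0543 in the fibroblast library. Folds are ratios of RPKM, and each range in parentheses is the 95% exact interval from the read counts, so that only counting error is covered. All 7 fibroblast markers were abundant in both libraries, the lowest at 125 RPKM in SKPs and 81.4 RPKM in fibroblasts. Of these 7, Dcn was 6.89-fold higher in SKPs, Thy1 and Col1a1 were 3.17-fold and 2.07-fold lower, and the other 4 were under 2-fold apart. Of 8 SKP and neural crest markers 4 were at least 2-fold higher in SKPs, among them Nes at 28.2 against 6.30 RPKM. None was at least 2-fold lower. Of the 6 past the expression filter in both libraries 2 were higher, and Msx1 had 0 reads in fibroblasts. Under 2-fold, Snai2, Ngfr and Twist1 were 1.86-fold, 1.58-fold and 1.10-fold lower in SKPs, and Sox9 was 1.34-fold higher. The 8 markers summed to 134 RPKM in SKPs and 137 RPKM in fibroblasts. Markers of other cell types were also higher in the SKP library. All 6 mast cell markers were higher there (summed 108 RPKM against 0.676, with Cpa3 and Mcpt4 at 0 reads in fibroblasts), as were all 6 keratinocyte markers past the expression filter and all 3 leukocyte markers past it. Over the whole lists, markers below the filter included, the 7 keratinocyte markers summed to 31.3 RPKM in SKPs and 2.56 RPKM in fibroblasts, with Krt1 and Ivl at 0 in fibroblasts. The 7 leukocyte markers summed to 26.1 RPKM in SKPs and 4.27 RPKM in fibroblasts, with Emr1 and Cd52 at 0 in fibroblasts. Over all expressed genes 12.1% were higher and 6.41% were lower. The mast cell and keratinocyte markers counted here passed the expression filter described below in the SKP library alone. Of glial markers 1 was higher and 3 were lower, Cdh5 was the 1 endothelial marker past the filter and was higher, and so was Mitf of the melanocyte markers. In bulk RNA, fewer cells of a type and less RNA per cell cannot be told apart.

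Expressed genes were those with at least 1 RPKM and 20 reads in the SKP or the fibroblast library. Such a gene is called higher or lower below where its ratio reached 2-fold and its counting interval excluded equality. Of the 52 genes, 34 passed this filter and 18 did not. Of the 34 genes, 9 were higher in the SKP library, where 12.1% of all 12053 expressed genes were, and 8 were lower, where 6.41% of all expressed genes were. The other 17 were under 2-fold apart. The median log2 ratio, SKP over fibroblast, was -0.29 over the 34 genes and -0.01 over all expressed genes. A gene that passed the filter in 1 library alone tends to differ by that choice: of the 9 higher genes 5 passed only in the SKP library, and of the 8 lower genes 3 passed only in the fibroblast library. Among the 25 genes past the filter in both libraries, 4 were higher (7.44% of all such genes) and 5 were lower (4.66%). At a 4-fold limit, 4 of the 34 were higher (5.85% of expressed genes) and 4 were lower (2% of expressed genes). With 1 added to each RPKM, which understates the difference of low genes, Slc7a2, Slc7a7, Slc43a2, Slc1a6, Slc7a4 and Slc7a6 came under 2-fold. Among the 21 genes that reached 5 RPKM, 2 were higher (9.23% of all such genes) and 6 were lower (5.33%).

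Of the 11 genes at 20 RPKM or more in either library, 0 were higher in SKPs and 3 were lower. Over all 4174 expressed genes at that level 9.56% were higher and 6.49% were lower. Of the 23 expressed genes under 20 RPKM in both libraries, 9 were higher and 5 were lower, where 13.4% and 6.36% of all 7879 such genes were. Since 5 of those 9 and 3 of those 5 passed the filter in 1 library alone, the count among the 14 genes past it in both was 4 higher and 2 lower. Of all 6740 genes at that level past it in both, 442 were higher and 244 were lower. The abundant transporters were largely shared: 7 of the 8 genes with the highest RPKM were the same in both libraries, and the 8 of the SKP library made up 75.6% of the summed RPKM of the 52 genes there and 72.3% in fibroblasts. The summed level of all 52 genes was 615 RPKM in SKPs and 753 RPKM in fibroblasts. Across the 34 expressed genes Spearman's rho between the libraries was 0.747, against 0.891 across all expressed genes, as a description over genes that share the same 2 libraries.

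**Figure D1:**
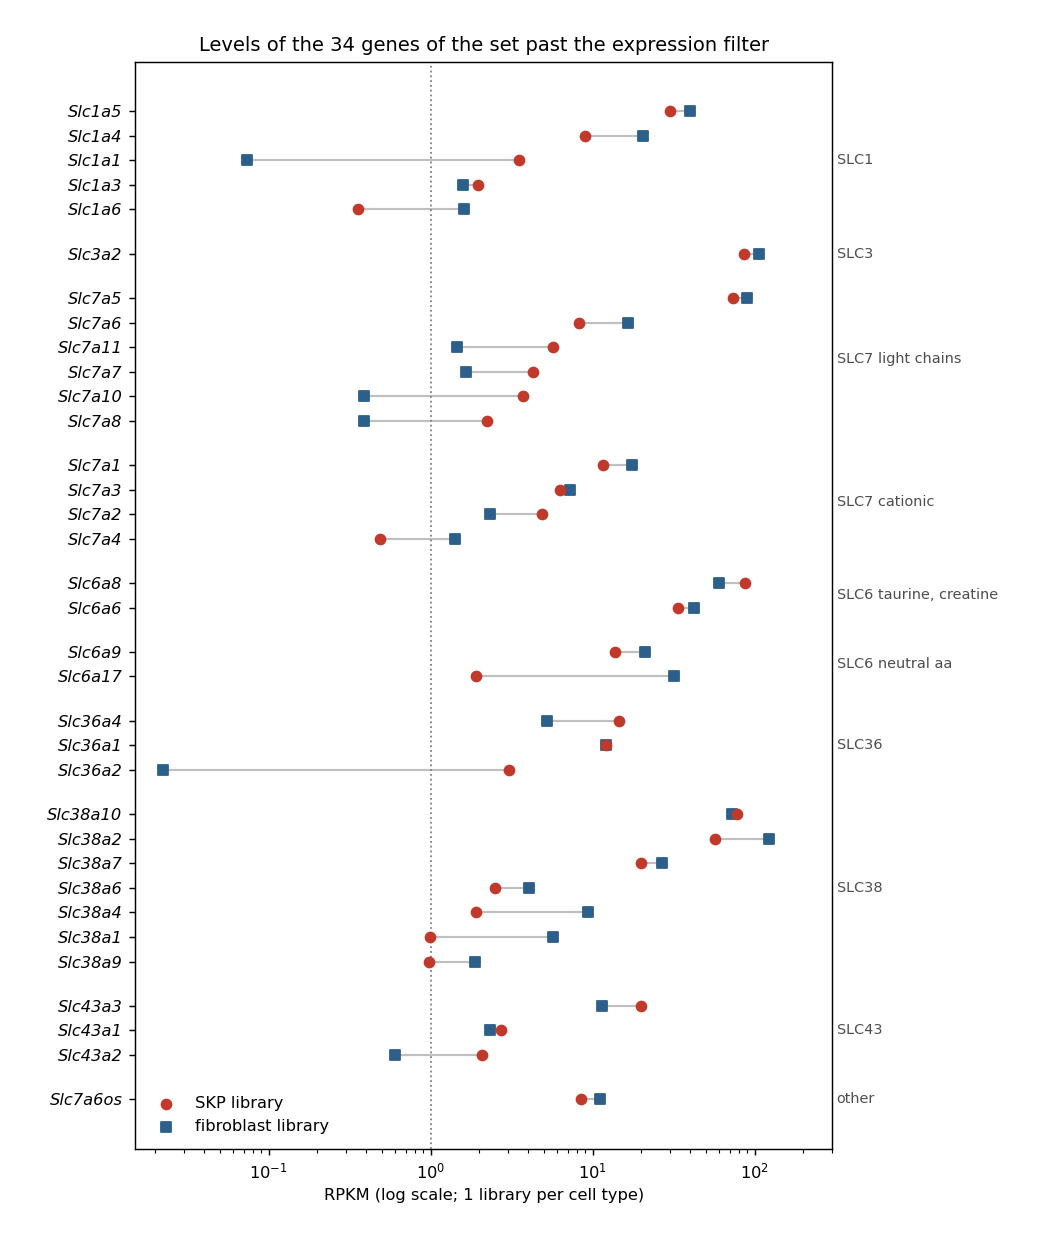
RPKM on a log axis of the 34 transporter-set genes past the expression filter, grouped by family, in the SKP library (red circles) and the fibroblast library (blue squares), with a dotted line at 1 RPKM. Slc3a2, Slc7a5 and Slc38a10 are high and close together in both libraries, while Slc36a2, Slc1a1 and Slc6a17 show the widest gaps.

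The heavy chain and its main partner were among the most abundant genes and differed little. Slc3a2, which encodes the heavy chain CD98 that brings SLC7 light chains to the cell surface, stood at 86.0 RPKM in SKPs and 106 RPKM in fibroblasts, 1.24-fold lower in SKPs (1.19 to 1.29). Slc7a5, the leucine and large neutral amino acid exchanger LAT1, stood at 73.9 RPKM in SKPs and 89.7 RPKM in fibroblasts, 1.21-fold lower (1.17 to 1.26). The ratio of Slc3a2 RPKM to the summed RPKM of its 6 expressed light chains was 0.877 in SKPs and 0.964 in fibroblasts. Slc3a1, the other heavy chain, known from kidney and intestine, had 2 reads in SKPs and 6 in fibroblasts.

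The less abundant light chains differed more. Of the 6 expressed light chains 4 were higher in SKPs, against 12.1% of all expressed genes, and of the 4 past the filter in both libraries 2 were higher, against 7.44%. Slc7a11 (gene ID 26570), the cystine and glutamate exchanger xCT that supplies cysteine for glutathione, had 992 reads (5.67 RPKM) in SKPs and 247 reads (1.45 RPKM) in fibroblasts, 3.90-fold higher in SKPs (3.39 to 4.50). It made up 5.79% of the summed light chain RPKM in SKPs and 1.32% in fibroblasts, while Slc7a5 made up 75.4% in SKPs and 81.4% in fibroblasts. Slc7a10 (gene ID 53896), the small neutral amino acid exchanger Asc-1, had 138 reads (3.70 RPKM) in SKPs and 14 reads (0.387 RPKM) in fibroblasts, 9.57-fold higher (5.52 to 18.0). Reads covered 77.6% of its length in SKPs and 10.5% in fibroblasts, where the 14 reads laid end to end amount to 34.9%.

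Slc7a8, the neutral amino acid exchanger LAT2, had 172 reads (2.23 RPKM) in SKPs and 29 reads (0.388 RPKM) in fibroblasts, a 5.76-fold difference (3.87 to 8.86). Slc7a7, which exports basic amino acids in return for neutral ones and is known from kidney, intestine and macrophages, had 186 reads (4.28 RPKM) in SKPs and 70 (1.66 RPKM) in fibroblasts, 2.58-fold higher (1.95 to 3.45). Its relative Slc7a6 went the other way, with 584 reads (8.26 RPKM) in SKPs and 1137 (16.6 RPKM) in fibroblasts. That gene was 2.00-fold lower in SKPs (1.81 to 2.22), at the threshold itself, and it was under 2-fold on other scalings of the libraries. Slc7a6os, which the symbol rule takes in, is named for its place opposite Slc7a6 and encodes no transporter. It stood at 8.51 RPKM in SKPs and 11.1 RPKM in fibroblasts.

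Slc7a10 is also known as a surface protein of mouse white fat cells, and most adipocyte markers were higher in the same library. Of 7 such markers 5 were higher in SKPs (12.1% of all expressed genes were) and Lpl was lower (6.41% were). Pparg was under 2-fold apart. Among the 5 higher markers 4 passed the filter in the SKP library alone. Of the 3 past it in both libraries 1 was higher (7.44% of all such genes were) and 1 was lower (4.66% were). None of the 7 was at 0 reads, and they summed to 533 RPKM in SKPs and 352 RPKM in fibroblasts. Adipoq, which encodes adiponectin, had 830 reads in SKPs and 4 in fibroblasts, and the lipid droplet gene Plin1 had 425 and 3. The part of fat cell RNA in the Slc7a10 result was not tested, nor was that of macrophage RNA in the Slc7a7 result. In addition, 17.9% of the exon bases of Slc7a10 in the GENCODE M21 annotation lie opposite exons of Lrp3, which stood at 19.4 RPKM in SKPs and 5.31 RPKM in fibroblasts, and 6.998% of those of Slc7a7 lie opposite exons of Oxa1l (30.8 against 33.1 RPKM). Counting by strand is not stated, so reads of such pairs cannot be told apart.

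Promoter sequences were compared because ATF4 binds a composite element of the form TGATGNAA, known from the Slc7a11 promoter among others. RefSeq windows of build GRCm38.p6, 250 bases before to 50 after the start, were found for 35 of the 52 genes, 53 windows in all, and both strands were searched. The motif was in 4 of these 53 windows, belonging to 3 genes, against 3.97% of all 32851 windows. The element TGACNNNGC, which NRF2 binds, was searched the same way and was in 9 of the 53 windows and in 12.4% of all windows; the Slc7a11 window was not among them. The windows of the 3 genes with TGATGNAA are shown to 20 bases after the start, with the matches in capitals (TTGCATCA is a match on the other strand).
Slc7a11, chr3:50443594-50443863, minus strand: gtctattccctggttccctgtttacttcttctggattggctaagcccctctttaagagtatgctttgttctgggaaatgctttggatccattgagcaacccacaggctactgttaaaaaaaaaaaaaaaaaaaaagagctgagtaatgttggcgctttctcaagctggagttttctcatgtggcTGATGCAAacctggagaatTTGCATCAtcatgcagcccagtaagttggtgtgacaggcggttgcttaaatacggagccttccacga
Slc1a4, chr11:20332694-20332963, minus strand: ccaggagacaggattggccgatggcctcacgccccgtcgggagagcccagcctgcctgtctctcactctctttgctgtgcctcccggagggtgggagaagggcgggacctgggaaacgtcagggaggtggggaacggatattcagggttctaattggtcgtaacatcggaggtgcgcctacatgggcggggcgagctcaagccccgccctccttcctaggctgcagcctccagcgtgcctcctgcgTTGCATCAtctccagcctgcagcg
Slc7a7, chr14:54417925-54418194, minus strand: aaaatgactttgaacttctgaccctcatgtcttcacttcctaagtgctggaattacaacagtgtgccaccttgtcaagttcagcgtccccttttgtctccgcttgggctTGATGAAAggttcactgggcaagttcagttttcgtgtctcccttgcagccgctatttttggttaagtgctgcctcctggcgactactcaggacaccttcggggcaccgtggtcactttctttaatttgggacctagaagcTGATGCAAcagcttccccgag
Slc7a11 holds 2 matches on opposite strands, beginning at positions -66 and -47 from the start. Slc1a4 holds 1 match, across the start at -4. Slc7a7 holds matches at -141 and -1, and a further window of the gene, from another start nearby, holds the match at -1 again, there at -243. Slc7a11 and Slc7a7 were higher in SKPs, and Slc1a4 was lower. A match describes these letters only and says nothing of binding.

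Of the 5 expressed SLC1 genes, 1 was higher in SKPs (12.1% of all expressed genes were), 2 were lower (6.41% were) and 2 were under 2-fold apart. Of the 3 past the filter in both libraries 0 were higher (7.44% of all such genes were) and 1 was lower (4.66% were). Slc1a1 (gene ID 20510), the glutamate, aspartate and cysteine carrier EAAC1, had 248 reads (3.53 RPKM) in SKPs and 5 reads (0.0733 RPKM) in fibroblasts, 48.2-fold higher in SKPs (20.4 to 150). Reads covered 84.2% of its length in the SKP library and 5.47% in the fibroblast library. It made up 56.5% of the summed RPKM of the 5 glutamate carriers in SKPs and 2.14% in fibroblasts. GENCODE M21 places 31.9% of its exon bases opposite exons of 4430402I18Rik, which had only 16 reads in SKPs and 4 in fibroblasts.

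Slc1a3, the glial glutamate carrier GLAST, was close in both libraries, at 1.97 RPKM in SKPs and 1.57 RPKM in fibroblasts (1.25-fold, 0.9804 to 1.60). Slc1a6, a glutamate carrier known from Purkinje cells, had 14 reads (0.354 RPKM) in SKPs and 62 reads (1.61 RPKM) in fibroblasts, 4.56-fold lower in SKPs (2.52 to 8.82). Together the 5 glutamate carriers summed to 6.25 RPKM in SKPs and 3.42 RPKM in fibroblasts. Slc1a2 and Slc1a7 lay below the filter, with 33 and 14 reads in SKPs and 8 and 7 in fibroblasts.

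The neutral exchangers were more abundant than the glutamate carriers in both libraries. Slc1a4 (ASCT1), which carries alanine, serine and cysteine, had 668 reads (8.98 RPKM) in SKPs and 1476 reads (20.4 RPKM) in fibroblasts, 2.27-fold lower in SKPs (2.07 to 2.50). Slc1a5 (ASCT2), a main route of glutamine, stood at 29.98 RPKM in SKPs and 39.9 RPKM in fibroblasts, 1.33-fold lower (1.25 to 1.42).

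**Figure D2:**
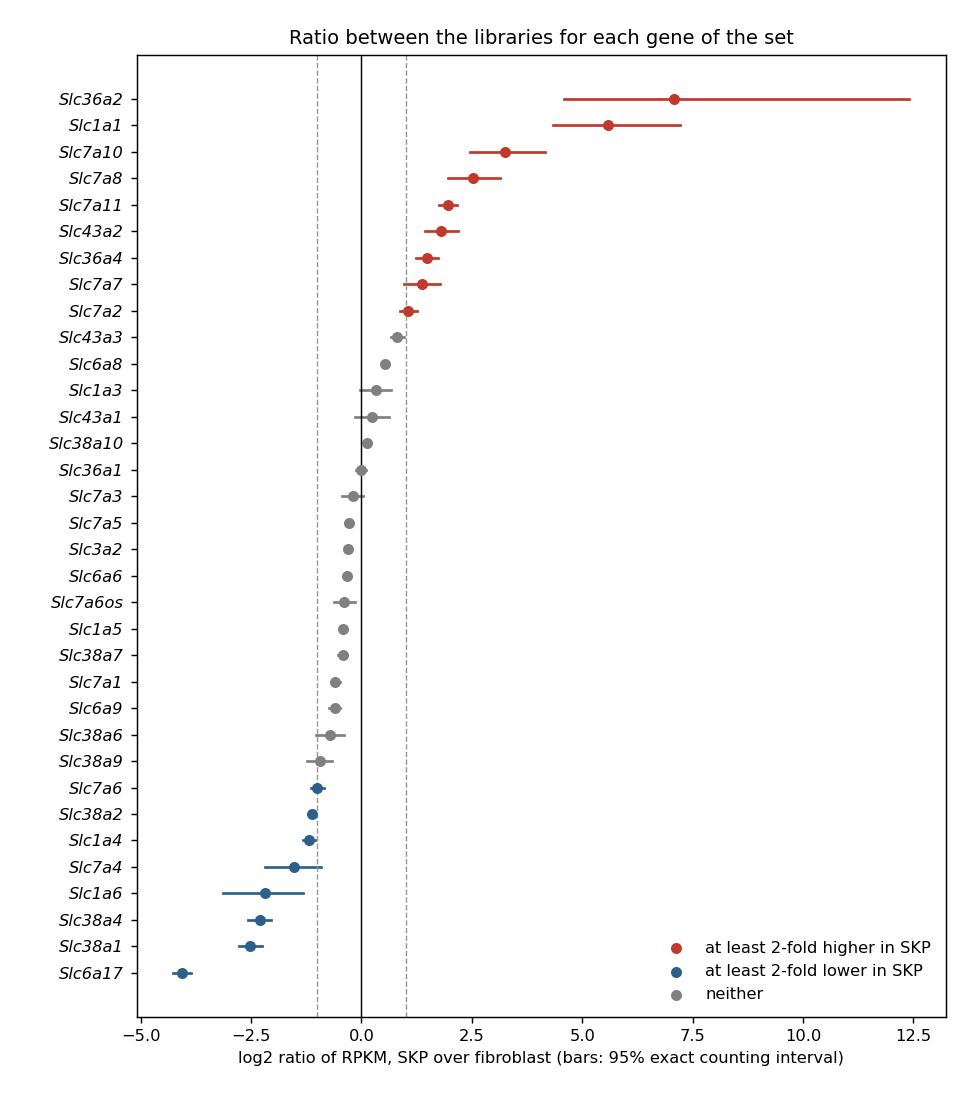
Log2 ratio of RPKM, SKP over fibroblast, for the 34 expressed genes, with 95% exact counting intervals as bars and dashed lines at 2-fold. The 9 higher genes are in red and the 8 lower genes in blue; the wide bar of Slc36a2 reflects its 1 fibroblast read.

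The sodium-coupled SLC38 carriers had the highest summed RPKM of any family in both libraries, and all 3 carriers of system A, the insulin- and starvation-regulated uptake of small neutral amino acids, were lower in SKPs. Slc38a2 (SNAT2, gene ID 67760) was the most abundant gene of the set in fibroblasts, with 4995 reads (56.7 RPKM) in SKPs and 10499 reads (123 RPKM) in fibroblasts, 2.16-fold lower in SKPs (2.09 to 2.24). Slc38a1 (SNAT1) had 145 reads (0.987 RPKM) in SKPs and 807 reads (5.66 RPKM) in fibroblasts, 5.73-fold lower (4.796 to 6.89). Slc38a4 (SNAT4), a gene known from liver and placenta, had 141 reads (1.89 RPKM) in SKPs and 677 reads (9.35 RPKM) in fibroblasts, 4.94-fold lower (4.12 to 5.97).

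The 3 genes are neighbours on chromosome 15, with 0 other protein-coding genes between them in the RefSeq annotation of GRCm38.p6. Their summed level was 59.6 RPKM in SKPs and 138 RPKM in fibroblasts, and Slc38a2 made up 95.2% of it in SKPs and 89.1% in fibroblasts. Of the 7 expressed members of the family these 3 were lower, against 6.41% of all expressed genes, and the other 4 were under 2-fold apart. Among the 5 past the filter in both libraries 2 were lower, against 4.66%. Slc38a10, a broadly expressed member, stood at 78.1 RPKM in SKPs and 71.9 RPKM in fibroblasts. Slc38a7, a lysosomal glutamine carrier in human cells, stood at 19.8 RPKM in SKPs and 26.7 RPKM in fibroblasts.

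Slc38a9, the lysosomal arginine sensor of mTORC1, stood at 0.971 RPKM in SKPs and 1.87 RPKM in fibroblasts (1.93-fold lower, 1.59 to 2.34), and Slc38a6 at 2.48 RPKM in SKPs and 4.06 RPKM in fibroblasts. The system N genes Slc38a3 and Slc38a5 had 1 and 2 reads in SKPs and 1 and 0 in fibroblasts.

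The 3 SLC36 genes with reads were all expressed, and 2 of them were higher in SKPs, against 12.1% of all expressed genes. Of the 2 past the filter in both libraries 1 was higher, against 7.44%. Slc36a2 (gene ID 246049), a glycine and proline carrier, had 140 reads (3.04 RPKM) in SKPs and 1 read (0.0223 RPKM) in fibroblasts, a 136-fold difference with a wide interval (24.0 to 5409) that the single read sets. Reads covered 79.1% of its length in SKPs. Its neighbour on chromosome 11, Slc36a1, with 0 protein-coding genes between them, encodes a carrier of small amino acids out of lysosomes and was level, with 1208 reads (12.1 RPKM) in SKPs and 1180 reads (12.1 RPKM) in fibroblasts, a ratio of 0.994 (0.917 to 1.08).

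Slc36a4, a high-affinity proline and tryptophan carrier, had 534 reads (14.5 RPKM) in SKPs and 186 reads (5.22 RPKM) in fibroblasts, 2.79-fold higher in SKPs (2.36 to 3.31). Slc36a2 is also known as a surface protein of mouse brown and beige fat cells. Of the 7 general adipocyte markers given above 5 were higher in the same library and Lpl was lower. The part of fat cell RNA in the Slc36a2 result was not tested.

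The facilitated carriers of SLC43 were higher or close. Slc43a2 (LAT4), an exit route for large neutral amino acids, had 283 reads (2.08 RPKM) in SKPs and 79 reads (0.599 RPKM) in fibroblasts, 3.48-fold higher in SKPs (2.70 to 4.52). Slc43a3, which carries purine bases rather than amino acids, stood at 19.9 RPKM in SKPs and 11.4 RPKM in fibroblasts (1.75-fold, 1.58 to 1.95). Slc43a1 (LAT3) stood at 2.72 RPKM in SKPs and 2.31 RPKM in fibroblasts, with an interval that included equality. Summed over the family, the level was 24.7 RPKM in SKPs and 14.3 RPKM in fibroblasts. Most of both sums was the purine base carrier gene Slc43a3, at 19.9 RPKM and 11.4 RPKM.

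Among the cationic amino acid carriers of SLC7, Slc7a1 (CAT1), the housekeeping carrier of arginine and lysine, stood at 11.7 RPKM in SKPs and 17.5 RPKM in fibroblasts, 1.504-fold lower in SKPs (1.41 to 1.60). Slc7a2 (CAT2), which is inducible and feeds arginine to nitric oxide synthesis in macrophages, had 708 reads (4.83 RPKM) in SKPs and 329 reads (2.31 RPKM) in fibroblasts, 2.09-fold higher (1.83 to 2.39). Slc7a2 made up 21.2% of the summed RPKM of Slc7a1, Slc7a2 and Slc7a3 in SKPs and 8.54% in fibroblasts. Slc7a3 (CAT3) stood at 6.28 RPKM in SKPs and 7.22 RPKM in fibroblasts, with an interval that included equality. The orphan Slc7a4 had 30 reads (0.490 RPKM) in SKPs and 84 reads (1.41 RPKM) in fibroblasts, 2.88-fold lower (1.88 to 4.53), and 13.3% of its exon bases lie opposite exons of P2rx6.

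The SLC6 family also holds the carriers of neurotransmitters and osmolytes. Slc6a17 (gene ID 229706), a carrier of neutral amino acids into synaptic vesicles of neurons, had the largest ratio in favour of fibroblasts, with 229 reads (1.91 RPKM) in SKPs and 3720 reads (31.9 RPKM) in fibroblasts, 16.7-fold lower in SKPs (14.6 to 19.2). Reads covered 72.8% of its length in SKPs and 98.4% in fibroblasts. Of the 4 neuronal markers found, Mtap2 and Nefl were higher in SKPs (12.1% of all expressed genes were). Tubb3 was lower (6.41% were), with 22 reads in SKPs and 184 in fibroblasts, and Syp was below the filter. The 3 past the filter passed it in 1 library alone. None of the 4 was at 0, and their summed level was 10.0 RPKM in SKPs and 6.17 RPKM in fibroblasts. The part of neuronal RNA in the Slc6a17 result was not tested.

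Slc6a8, the creatine carrier, was the most abundant gene of the set in SKPs, at 86.9 RPKM in SKPs and 60.4 RPKM in fibroblasts, 1.44-fold higher in SKPs (1.38 to 1.49). The taurine carrier gene Slc6a6 stood at 33.7 RPKM in SKPs and 42.2 RPKM in fibroblasts, 1.25-fold lower (1.2001 to 1.31). Slc6a9, the glycine carrier GlyT1, stood at 13.8 RPKM in SKPs and 21.0 RPKM in fibroblasts, 1.52-fold lower (1.39 to 1.66), and 27.8% of its exon bases lie opposite exons of Ccdc24, at 1.63 RPKM in SKPs and 2.01 RPKM in fibroblasts.

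The 3 monoamine carriers lay below the filter. Slc6a4, the serotonin carrier, had 42 reads (0.807 RPKM) in SKPs and 4 reads (0.0791 RPKM) in fibroblasts, a 10.2-fold ratio (3.70 to 39.2). Slc6a2 had 1 read in SKPs and 3 in fibroblasts, and Slc6a3 had 0 in SKPs and 1 in fibroblasts. Also below the filter, Slc6a14, a broad neutral and basic amino acid carrier, had 15 reads in SKPs and 0 in fibroblasts. Its ratio was 4.86-fold when 3 reads are taken as the fibroblast floor, and the exact interval begins at 3.48. Slc6a12, the betaine carrier, had 5 reads in SKPs and 37 in fibroblasts, and Slc6a15, a neutral amino acid carrier of the brain, had 16 and 61. Slc6a7, the proline carrier of neurons, had 11 reads in SKPs and 28 in fibroblasts. Slc6a13, Slc6a20b and Slc7a13 had at most 3 reads in SKPs and at most 7 in fibroblasts. Slc6a18 and Slc7a14 had 21 and 40 reads in SKPs and 46 and 98 in fibroblasts, stacked on small stretches of the genes.

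**Figure D3:**
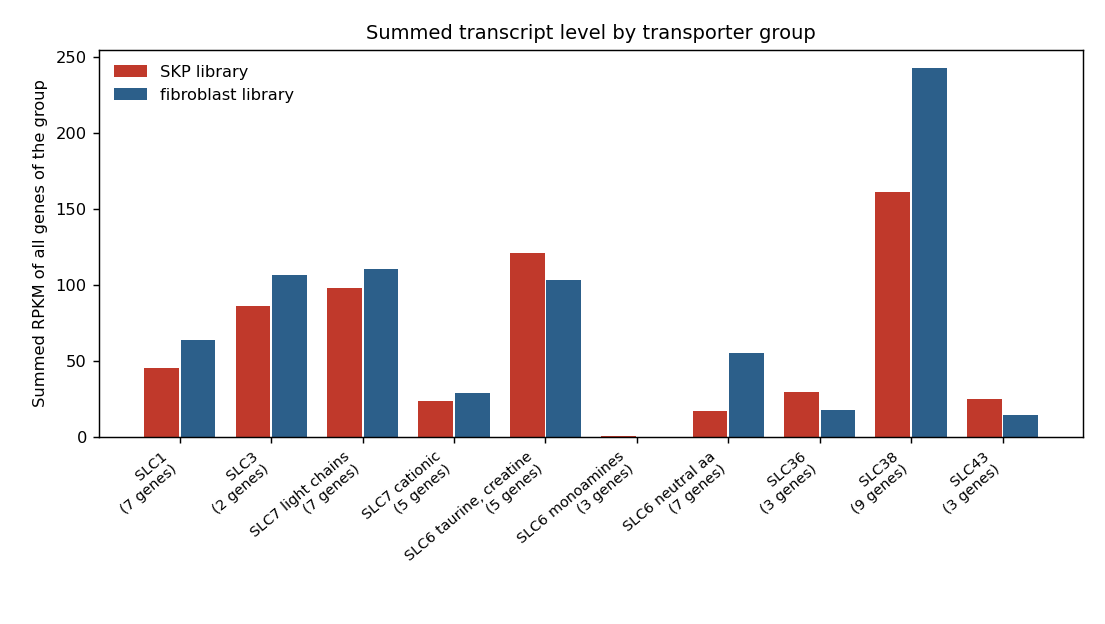
Summed RPKM of all genes of each transporter group, in the SKP library (red, left) and the fibroblast library (blue, right), on an axis from 0. SLC38 holds the largest sum, 161 RPKM in SKPs and 242 RPKM in fibroblasts. The sum is larger in SKPs for 4 groups: SLC36, SLC43, the SLC6 carriers of GABA, taurine, betaine and creatine, and the SLC6 monoamine carriers. The GABA, taurine, betaine and creatine group sums to 121 RPKM in SKPs and 103 RPKM in fibroblasts, and 0 of its genes are called higher. The monoamine group sums to 0.816 RPKM in SKPs and 0.122 RPKM in fibroblasts, with all 3 genes below the expression filter. Of the SLC43 sum, the purine base carrier gene Slc43a3 holds 19.9 RPKM in SKPs and 11.4 RPKM in fibroblasts.

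Of the 17 expressed genes under 2-fold apart, 13 had intervals that excluded equality, 10 of them below it and 3 above (Slc6a8, Slc38a10 and Slc43a3). For the other 4, Slc1a3, Slc7a3, Slc36a1 and Slc43a1, the difference was within the counting error.

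Other genes of amino acid handling were set beside the transporters, and their counts stand against 12.1% higher and 6.41% lower over all expressed genes. Of 20 expressed genes of amino acid synthesis and glutamine use, 2 were higher in SKPs, 3 were lower and the other 15 were under 2-fold apart; the median log2 ratio was -0.27. Glul, which makes glutamine, was 3.14-fold higher in SKPs (2.84 to 3.49), at 30.03 RPKM in SKPs and 9.55 RPKM in fibroblasts. Among the lower genes were Bcat1, a branched-chain aminotransferase (2.35-fold), and Cth, which makes cysteine from cystathionine (2.14-fold), and the alanine aminotransferase gene Gpt was 2.19-fold higher. The asparagine synthetase gene Asns stood at 70.8 RPKM in SKPs and 130 RPKM in fibroblasts and the serine synthesis gene Phgdh at 62.6 RPKM in SKPs and 122 RPKM in fibroblasts, both under 2-fold. Asns and Phgdh were singled out after their values were seen.

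Of 15 genes of the GCN2 and ATF4 response, 1 was higher in SKPs (6.67%, against 12.1% of all expressed genes), 4 were lower (26.7%, against 6.41%) and the other 10 were under 2-fold apart; the median log2 ratio was -0.57. The 4 lower genes were Chac1, which breaks down glutathione (11.0 RPKM in SKPs and 36.7 RPKM in fibroblasts, 3.33-fold, 2.94 to 3.78), the pseudokinase gene Trib3 (2.53-fold), Stc2, which encodes stanniocalcin (2.28-fold), and the transcription factor gene Ddit3 (2.02-fold). The 1 higher gene was the lipoprotein receptor gene Vldlr (2.24-fold). Atf4 itself stood at 199 RPKM in SKPs and 276 RPKM in fibroblasts. Ddit3 and Atf4 were chosen after their values were seen.

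Of 18 expressed mTORC1 amino acid sensing genes, 1 was higher (12.1% of all expressed genes were) and 0 were lower (6.41% were), and the median log2 ratio was 0.11. The higher gene was Sesn3, a sestrin that restrains mTORC1, at 22.5 RPKM in SKPs and 4.51 RPKM in fibroblasts (4.99-fold, 4.24 to 5.89). Of 12 expressed glutathione and NRF2 genes, 3 were higher (Ggt5, 9.45-fold, Srxn1, 2.24-fold, and Nfe2l2, which encodes NRF2, 2.00-fold) and 3 were lower (Gclm, 3.16-fold, Gsr, 2.47-fold, and Ggt7), which is 25% each way, against 12.1% and 6.41% of all expressed genes. Nfe2l2 and Ggt7 were named after their values were seen. All 9 expressed genes of other amino acid and peptide carrier families, such as the mitochondrial Slc25 carriers and the lysosomal cystine carrier gene Ctns, were under 2-fold apart, with a median of -0.05 and log2 ratios between -0.67 and 0.99.

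**Figure D4:**
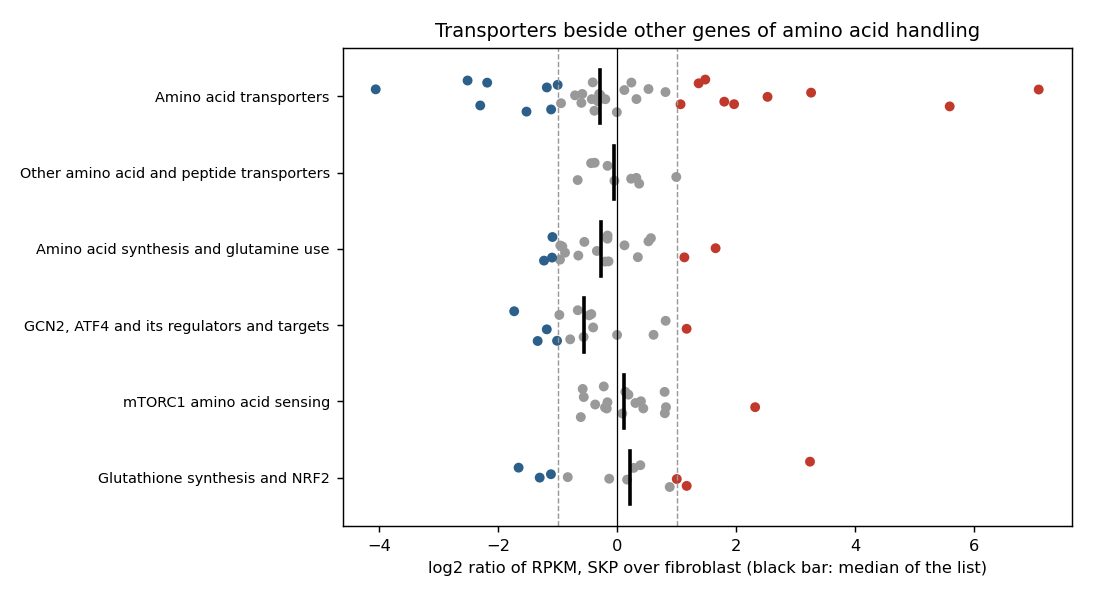
Log2 ratio of RPKM, SKP over fibroblast, of each expressed gene in the transporter set and in 5 lists of amino acid handling genes, with the median of each list as a black bar and dashed lines at 2-fold. The transporter set spans the widest range, with a median of -0.29, and the GCN2 and ATF4 list has the lowest median, -0.57.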

How the data were processed

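Poly(A) RNA of 1 SKP and 1 fibroblast culture was sequenced on Illumina libraries, per the labels' protocols. Per the file headers, each library's deposited table holds an unnormalized read count for each gene and an RPKM that scales it by gene length and by the header total. The deposited percent values give mapping shares, 85.13% of SKP and 81.65% of fibroblast reads mapped with at most 2 mismatches, and the share of each gene length covered. The authors' comparison table gives a log2 ratio of fibroblast over SKP RPKM (0.01 in place of 0), a p-value and an FDR from a test that is not named. Per the submitters' processing notes, the genome build was mm9. For the aligner, annotation and strandedness, nothing is stated in the sources used here. Although the header calls reads unique, 21.69% of SKP and 19.69% of fibroblast reads matched several positions. Reads that matched 1 position were 63.44% of 22981183 in SKPs and 61.95% of 23374716 in fibroblasts. The header totals, 18949264 in SKPs and 18406244 in fibroblasts, are larger than these shares give. How reads at several positions were counted was not tested, so splits between paralogs are uncertain.

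Ratios were computed in Python 3.11.15 (pandas 2.3.3, numpy 2.4.6, scipy 1.17.1, matplotlib 3.10.9), with Clopper-Pearson intervals from the read counts; scaling factors came from edgeR 4.0.16. A library with 0 reads was set to a floor of 3 reads, and no fold is given where the other library had 3 reads or fewer. Intervals and floors cover counting error only. The interval script was checked on simulated counts. With 1 library per group no p-value was computed and no library could be left out. Members were described by rule, apart from a few results that are not reported here, with up to 4 expressed genes of each pathway list by size of ratio. Members and lists were chosen with earlier results of these data known.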

Additional observations from a re-analysis of the deposited data

How the results depend on the processing

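No paired analysis was possible because there was 1 library per cell type and no fit was made. The 34 expressed genes kept their sign of log2 ratio on edgeR's TMM scaling and on centring at the median of expressed genes. Each of these moved all log2 ratios by 0.01. The counts were then 9 higher and 7 lower, since Slc7a6 passed under 2-fold. Of all expressed genes 12.1% were higher on either scaling, and 6.31% were lower on TMM scaling and 6.30% on centring. On the log2(RPKM + 1) scale 6 were higher (9.11% of expressed genes) and 5 lower (4.21%): Slc7a2, Slc7a7, Slc43a2, Slc1a6, Slc7a4 and Slc7a6 were no longer 2-fold apart. Without the filter 12 were higher (12.6% of all genes) and 13 lower (6.22%), Slc7a14 and Slc6a18 among them, and at RPKM 5 or more 2 of 21 were higher (9.23%) and 6 lower (5.33%). At 4-fold 4 were higher (5.85% of expressed genes) and 4 lower (2%). With only genes past the filter in both libraries, 4 were higher (7.44% of all such genes) and 5 lower (4.66%). Without Slc7a6os the counts were 9 and 8, against 12.1% and 6.41% of expressed genes. These last 2 alternatives were chosen after the data were seen. In the authors' deposited table the filtered list, with an FDR of at most 0.001 and at least 2-fold, held 12 genes of the set higher in SKPs and 11 lower, against 10.5% and 4.796% of all genes in that table. The median log2 ratio lay between -0.38 and -0.28 under these alternatives. Of the pathway lists, GCN2 and ATF4 had 2 lower genes on the log2(RPKM + 1) scale. Amino acid synthesis had 1 higher gene there and at RPKM 5 or more, and 2 lower genes on the log2(RPKM + 1) scale. Glutathione and NRF2 had 2 higher and 2 lower genes on that scale, and 2 higher genes at RPKM 5 or more. Without the filter, mTORC1 sensing had 1 lower gene of 19, and the other carrier families had 1 higher gene of 17. These counts stand against the shares of all genes given above for the same settings. Genes with few reads in 1 library, such as Slc36a2 and Slc1a1, have wide intervals, so their folds are imprecise at this depth.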

Other observations

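For 2 genes below the expression filter the reads lay on a small stretch of the gene. Slc7a14, an orphan SLC7 member, had 40 reads in SKPs and 98 in fibroblasts, which covered 3.71% and 2.75% of its length, whereas the same reads of 49 bases laid end to end amount to 22.1% in SKPs and 54.1% in fibroblasts. Slc6a18, a neutral amino acid carrier of the kidney, had 21 reads in SKPs and 46 in fibroblasts over 1.95% and 3.08% of its length, where end to end they amount to 23.9% and 52.2%. Slc6a4, with 42 SKP reads, had 42.4% of its length covered in that library, against 74.9% if laid end to end. No direction is read from the reads of Slc7a14 and Slc6a18.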
